A study of Drosophila melanogaster with 32 samples.

Results

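The genes described here encode nuclear subunits of the oxidative phosphorylation machinery, and 71 such genes were represented among the 11981 genes with a probe set of their own on the array. They were chosen by name: a probe set was taken where its single gene symbol in the platform annotation began with ND-, UQCR-, COX followed by a digit from 4 to 8, or ATPsyn, or was RFeSP, Cyt-c1 or one of the Sdh genes. The rule matched 80 probe sets, and 7 genes had several, for which the probe set with the highest mean over all arrays stood for the gene. The rule itself uses names and mean signal, and no difference between samples. By complex, the 71 genes divided into 32 of complex I, 3 of complex II, 8 of complex III, 14 of complex IV and 14 of complex V. No named probe set represented SdhA or any of the 13 subunits encoded by the mitochondrial genome, so these subunits were not analysed here. According to the RefSeq annotation, 16 of the genes lie on chromosome arm 2L, 13 on 2R, 16 on 3L, 15 on 3R, 10 on the X and 1 on chromosome 4.

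Oxidative phosphorylation takes place in the inner mitochondrial membrane. Complexes I and II feed electrons from NADH and succinate to ubiquinone, complex III passes them on to cytochrome c, complex IV hands them to oxygen, and complex V, the ATP synthase, uses the proton gradient built along the way to make ATP. Flight muscle is among the most densely mitochondrial tissues of an adult fly, and the egg receives its mitochondria from the ovary. Several nuclear subunit genes of Drosophila melanogaster have duplicates whose transcripts are found mainly in the testis.

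The study measured RNA of whole adult Drosophila melanogaster females on 32 Affymetrix arrays. All females came from 8 populations derived from the same LHM base stock and held for 46 generations, either with a single mating per generation (monogamy, Mono1 to Mono4) or with the standard, promiscuous mating protocol (Prom1 to Prom4). The mates of each population's females were either its own males or those of the same-numbered population of the other regime, and females were frozen 6 h after mating. This gave 16 crosses and 4 groups of 8 arrays each: monogamous females with monogamous males, monogamous females with promiscuous males, promiscuous females with monogamous males, and promiscuous females with promiscuous males. Each cross was measured on 2 arrays, 1 in each of the batches named in the labels. The population is the unit that evolved, so regimes were compared over 4 against 4 populations. No unmated females were among the samples, and a male regime cannot be told apart from the 4 male populations that carried it. In whole-fly RNA, fewer cells of a tissue and less RNA per cell cannot be told apart either.

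The deposited values are RMA expression values on the log2 scale, and all levels and differences below are on that scale. Array medians lay between 5.39 and 5.49, and over all probe sets the correlation was 0.996 to 0.998 between the arrays of a cross and 0.994 to 0.997 between populations within a batch. Markers of male tissue gave low values: of the accessory gland and testis marker lists, 12 of 12 and 13 of 14 genes averaged under 6. Of the ovary and germline markers 1 of 19 did, and of the 15 muscle markers none. Among all 18769 probe sets tested, 8668 averaged at least 6. Summed on the linear scale, the muscle markers ranged from 33104 to 49008 in monogamous females with monogamous males, from 36036 to 45333 in monogamous females with promiscuous males, from 32974 to 46822 in promiscuous females with monogamous males and from 32649 to 47095 in promiscuous females with promiscuous males, so the groups overlapped. RNA quality differed between the batches: the excess of 3′ over 5′ signal of the actin control was 1.00 ± 0.21 (SD over 16 crosses) larger in batch 2 than in batch 1, and larger in 16 of 16 crosses.

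Most subunit probe sets gave a strong signal, and the named duplicates gave a weak one. Of the 71 genes, 18 carry a symbol ending in L, or in L and a digit, that marks them as relatives of another subunit gene, with ND-MNLL set aside because the L there belongs to the subunit's name. The stem gene was itself a member for 12 of these 18. The 53 other members had mean values from 5.95 to 13.82 with a median of 11.87, and 50 of them averaged at least 10. The exceptions were ND-B8 (mean 7.59) and ND-B12 (mean 6.56) of complex I and UQCR-11 of complex III (mean 5.95). The 18 duplicates had mean values from 3.13 to 12.27 with a median of 4.09, and 1 of them, COX7AL2, averaged over 6. Signals of different probe sets do not rank amounts of mRNA, and at values this low a probe set may report background. The 53 members with a mean of at least 6, which are the non-duplicates without UQCR-11 together with COX7AL2, are called bright members below, and the other 18 dim members.

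**Figure D1:**
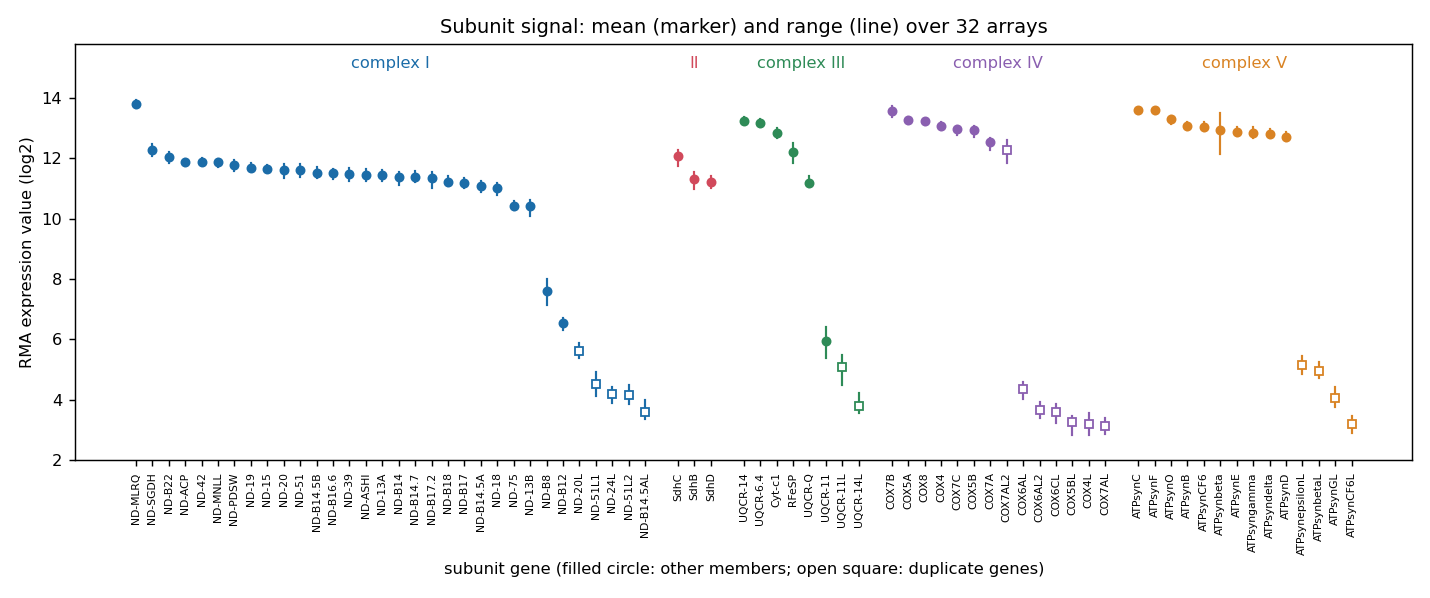
RMA expression value (log2) of each of the 71 subunit genes, ordered by complex; markers give the mean over 32 arrays and lines the range from the lowest to the highest array, with duplicate genes as open squares. Apart from COX7AL2 at 12.27, the duplicates lie below 6, and ATPsynbeta spans the widest range of the members of complex V.

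Within complex I, the 27 non-duplicate members had a median mean value of 11.47. They include ND-75, the large iron-sulfur subunit of the matrix arm (mean 10.44, lowest array 10.30, highest 10.59), ND-51, the flavin-carrying subunit at which NADH is oxidised (mean 11.62), and ND-ACP, the mitochondrial acyl carrier protein (mean 11.87). The ND-MLRQ probe set gave the highest mean of the set, 13.82; its mammalian counterpart NDUFA4 is now assigned to complex IV. Complex II was represented by its iron-sulfur subunit SdhB (mean 11.32) and its membrane anchors SdhC and SdhD (12.07 and 11.23). In complex III, the heme protein Cyt-c1 averaged 12.84 and the Rieske iron-sulfur protein RFeSP 12.22. In complex IV, the 7 non-duplicate members averaged from 12.56 for COX7A to 13.56 for COX7B, with COX4 at 13.09. In complex V, the 10 non-duplicates averaged from 12.73 for ATPsynD, a subunit of the peripheral stalk, to 13.60 for ATPsynC, the membrane ring proteolipid.

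The values moved little between populations. For a bright member, the SD between population means, taken within regimes, had a median of 0.044, and over all 71 members of 0.047. Among all 18769 probe sets tested the median was 0.068, and among the 2038 with a mean of at least 10 it was 0.052.

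For females of the promiscuous and the monogamous regime, the comparison asked whether evolution under the mating regimes left a difference in subunit transcript levels. No member passed at an adjusted p of 0.05 in limma, Benjamini-Hochberg adjusted over every probe set tested (0 of 71), and neither did any other probe set (0% of 18769). At an unadjusted p under 0.05 there were 5 members and 1312 probe sets in all. Of the members, 23 were higher and 48 lower in promiscuous females, with a median difference of -0.0091 against 0.0041 for all probe sets. Of the bright members, 37 of 53 were lower, with a median of -0.0076. Among all probe sets of that brightness, 48.0% were lower and the median was 0.0028. Among the central subunits of the complexes, for ND-75 the 95% interval of the difference ran from -0.076 to 0.11, for SdhB from -0.16 to 0.10, for COX4 from -0.075 to 0.091, for RFeSP from -0.14 to 0.29, and for ATPsynbeta from -0.13 to 0.11. The ATPsynbeta difference was 0.083 in batch 1 and -0.10 in batch 2, and the gene's other probe set gave -0.055 over both batches. Over the bright members the interval reached a median of 0.083 to either side of the estimate, and 50 of 53 intervals lay wholly within ±0.2 and 53 of 53 within ±0.3. A regime difference of more than 0.3 in either direction thus lay outside the interval of every bright member.

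The lowest p among the members belonged to ND-B8, an accessory subunit of complex I whose mammalian counterpart is NDUFA2. Its population means were 7.63, 7.75, 7.74 and 7.64 in Mono1 to Mono4 and 7.43, 7.55, 7.48 and 7.52 in Prom1 to Prom4. All 4 promiscuous populations thus lay below all 4 monogamous ones, although the single arrays of the regimes overlapped. The lowest, median and highest arrays were 7.41, 7.63 and 7.82 in monogamous females with monogamous males and 7.67, 7.73 and 7.99 in monogamous females with promiscuous males. They were 7.26, 7.57 and 7.80 in promiscuous females with monogamous males and 7.14, 7.47 and 7.56 in promiscuous females with promiscuous males. The difference of -0.19 ± 0.043 (SE, 4 against 4 populations) did not pass the adjustment (limma, adjusted p = 0.578), and it was -0.087 in batch 1 and -0.30 in batch 2. The only other member whose population means did not overlap between regimes was the dim duplicate ND-24L, at 4.06 to 4.16 in monogamous and 4.21 to 4.26 in promiscuous populations (difference 0.12 ± 0.034, limma, adjusted p = 0.578). Non-overlap of this kind occurred in 2 of 71 members and in 4.08% of all probe sets. The other members named by the rule of lowest p were the duplicates UQCR-11L (0.21 ± 0.072), COX6AL (0.073), COX6CL (-0.092 ± 0.035) and COX7AL2 (-0.14 ± 0.060), with adjusted p from 0.634 to 0.861 in limma.

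The mates were compared within female populations. Comparing promiscuous with monogamous mates, 0 of 71 members passed (0% of all probe sets; limma). At an unadjusted p under 0.05 there were 3 members, against 1977 probe sets in all. Of the members, 18 were higher and 53 lower with promiscuous males, with a median of -0.021 against -0.0016 for all probe sets. Of the bright members, 42 of 53 were lower, with a median of -0.020. Among all probe sets of that brightness, 35.8% were lower and the median was 0.015. The male difference had the same sign in 8 of 8 female populations for 2 of 71 members and for 1.77% of all probe sets. These were COX5BL, a dim duplicate of the complex IV subunit gene COX5B (-0.11 ± 0.032, limma, adjusted p = 0.402), and ND-SGDH, an accessory subunit of complex I (-0.056 ± 0.026, limma, adjusted p = 0.491). The difference of ND-SGDH was -0.12 in batch 1 and 0.0056 in batch 2, and that of COX5BL -0.11 in each. The lowest, median and highest arrays of COX5BL were 3.19, 3.31 and 3.45 in monogamous females with monogamous males and 3.08, 3.20 and 3.38 with promiscuous males, and 3.11, 3.33 and 3.44 against 2.84, 3.24 and 3.43 in promiscuous females, so that the groups overlapped. Those of ND-SGDH were 12.14, 12.32 and 12.48 against 12.13, 12.25 and 12.46 in monogamous females, and 12.18, 12.29 and 12.41 against 12.08, 12.22 and 12.45 in promiscuous females. The dim ND-B14.5AL (-0.094) and UQCR-14L (-0.11) and, on the other side, UQCR-11 (0.094, with 0.26 in batch 1 and -0.076 in batch 2), ND-24L (0.052) and Cyt-c1 (0.025) completed the members of lowest p in each direction, none of which passed.

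The effect of the mate was then compared between female regimes, as the interaction of female and male regime. Mates came from the female's own population or from the same-numbered population of the other regime. The interaction is therefore also the contrast of own-population pairs with mixed pairs, and these readings cannot be told apart. Again 0 of 71 members and 0% of all probe sets passed (limma), with 2 members and 1367 probe sets at an unadjusted p under 0.05. The male difference was lower in promiscuous than in monogamous females for 63 of 71 members, with a median interaction of -0.057 against -0.0003 for all probe sets. The muscle markers were lower in the same comparison for 14 of 15 genes, with a median of -0.12, and the part of muscle in the members' shift was not tested. Among the bright members it was lower for 51 of 53, whereas 49.4% of all probe sets of that brightness were lower. In monogamous females the bright members had a median male difference of 0.0082 and 17 of 53 were lower with promiscuous males, near the median of 0.011 and the 40.4% lower of all probe sets of that brightness. In promiscuous females the median was -0.051 and 51 of 53 were lower, against 0.014 and 41.4% of those probe sets. All 5 complexes had a negative median interaction, from -0.037 in complex V to -0.075 in complex III. ND-B8 (-0.26 ± 0.082, limma, adjusted p = 0.664) and ND-13B, an accessory subunit of complex I (-0.17 ± 0.066, limma, adjusted p = 0.664), had the lowest p.

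Averaged over both batches, most of this shift came from a single female population, Prom3. In batch 1 alone, most of it remained without Prom3. The median male difference over the 53 bright members was 0.015, 0.035, -0.023 and -0.00045 in Mono1 to Mono4, and -0.0055, -0.019, -0.17 and -0.0014 in Prom1 to Prom4. In Prom3, 51 of 53 bright members were lower with Prom3 males than with Mono3 males, with a median of -0.21 in batch 1 and -0.15 in batch 2. Complex I and complex II showed the widest differences there, with medians of -0.21 and -0.25, and complex V the narrowest, with -0.12. Of all probe sets with a mean of at least 6, 43.1% were lower in this comparison, and their median was 0.023. The muscle markers were lower in it for 14 of 15 genes, with a median of -0.16. The part of muscle in the result was not tested. Without Prom3, the interaction of the medians was -0.015 in place of -0.057. It was also uneven between batches, at -0.12 in batch 1 and 0.0005 in batch 2 (means over 4 populations of each regime), and without Prom3 at -0.091 in batch 1 and 0.052 in batch 2. Prom1 showed the batch difference plainly, since 52 of 53 bright members were lower with Prom1 males in batch 1 (median -0.13) and 53 of 53 were higher in batch 2 (median 0.10). Of all probe sets with a mean of at least 6, 38.0% were lower there in batch 1 (median 0.052) and 42.8% in batch 2 (median 0.018).

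**Figure D2:**
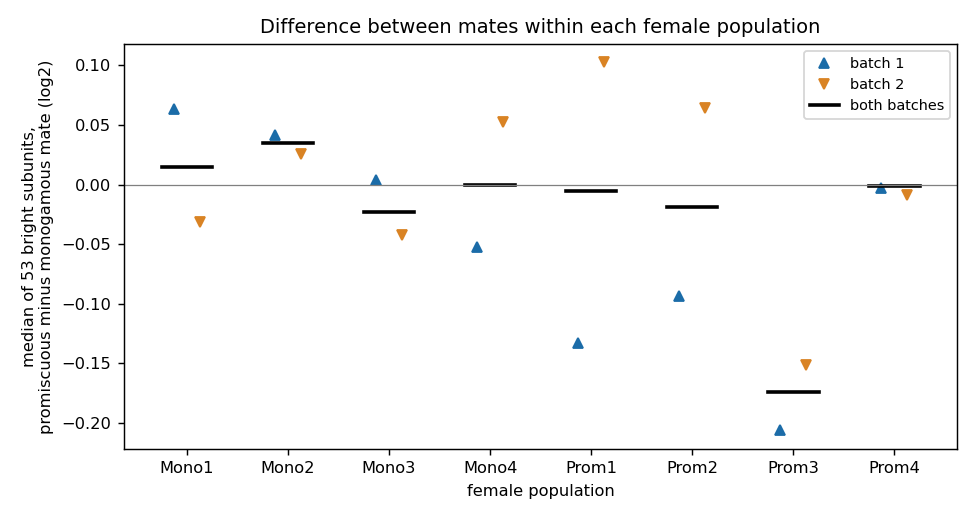
Median over the 53 bright subunits of the difference between promiscuous and monogamous mates (log2), for each female population; triangles give the single batches and bars the value over both batches. Prom3 lies at -0.17 over both batches, and the other 7 populations lie between -0.023 and 0.035 with batches that often differ in sign.

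The medians of the complexes mostly moved together from array to array, though on some arrays single complexes went opposite ways. Each bright member was expressed as its deviation from its own mean over 32 arrays, and the median deviation of the 53 was taken per array. It ranged from -0.13, on the array of Prom3 females with Prom3 males in batch 1, to 0.10, on that of Prom2 females with Mono2 males in batch 1. On 7 of 32 arrays at least 45 of the 53 bright members lay above their own mean, and on 6 of 32 at most 8 did. Among all probe sets with a mean of at least 6, the share above their own mean ran from 36.1% to 62.3% over the arrays. The median deviation of all those probe sets correlated with that of the bright members at r = -0.35, with -0.47 in batch 1 and -0.37 in batch 2. Complex II covered the widest range, from -0.31 to 0.22, and complex V ran from -0.11 to 0.093. The median of each complex correlated over the 32 arrays with that of all bright members at r = 0.98 for complex I, 0.92 for complex II, 0.85 for complex III, 0.93 for complex IV and 0.96 for complex V, each of which holds part of the same genes.

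**Figure D3:**
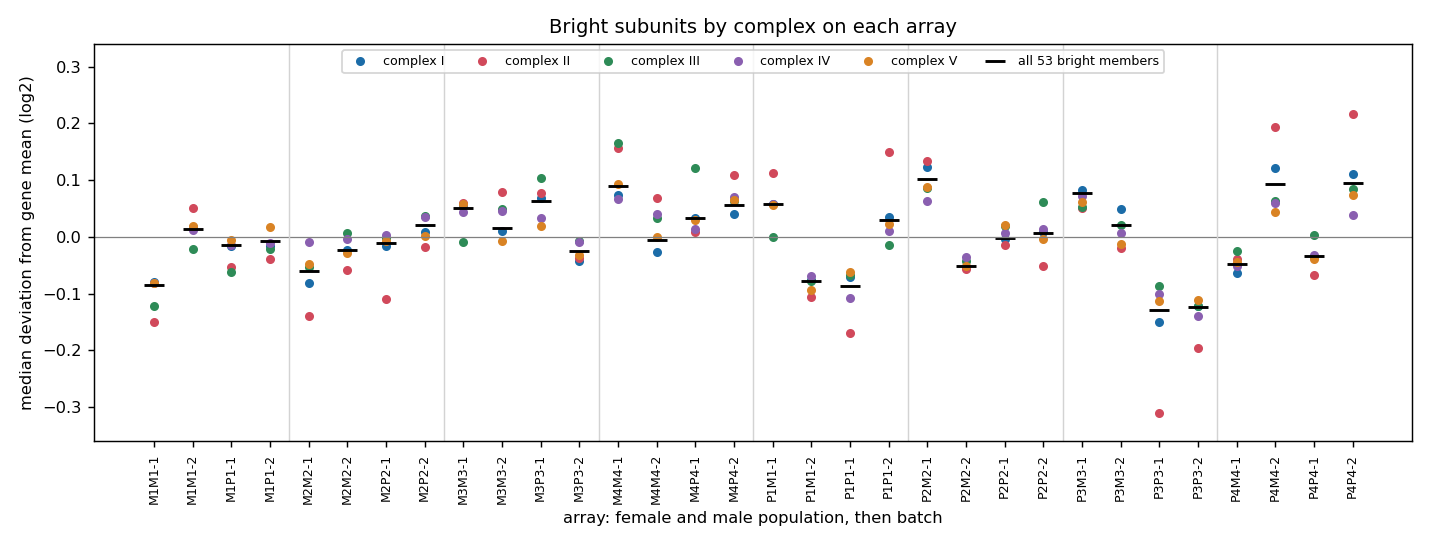
Median deviation of the bright subunits from their own mean (log2) on each of the 32 arrays, by complex (coloured points) and over all 53 (black bars); labels give the female population, the male population and the batch, so that P3M3-1 is Prom3 females with Mono3 males in batch 1. The complexes mostly move together from array to array, between -0.13 and 0.10 for the 53 members, and complex II swings furthest.

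Single members followed the rest of the set to different degrees. Against the median of the other bright members, r over 32 arrays had a median of 0.74 and exceeded 0.5 in 49 of 53 members; within batches its median was 0.77 in batch 1 and 0.77 in batch 2. Other probe sets with a mean of at least 6 had a median r of -0.071 with the same measure, and their 5th and 95th percentiles were -0.47 and 0.41. The closest followers were SdhD (r = 0.91), ND-ASHI of complex I (0.91), ATPsynO, the subunit that ties the ATP synthase head to its stalk (0.90), and SdhB (0.89). The loosest over all arrays were ATPsynbeta (0.079), ND-B16.6 (0.39), ND-MLRQ (0.40) and ATPsyngamma, the central rotor stalk (0.50). Within batches the order changed: ATPsynbeta gave 0.20 in batch 1 and 0.60 in batch 2, where COX7A (0.087) and ND-B12 (0.16) were loosest. Pairs of members from the same complex had a median r of 0.56 over 437 pairs, and pairs from different complexes 0.54 over 941 pairs. The 18 dim members, as a median, correlated with the bright ones at 0.29. All arrays share RMA normalisation, arrays of a cross share their populations, and no p is given for these correlations.

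Subunits that carry other symbols, and so escaped the naming rule, were set beside the members after the data had been seen. NP15.6, the counterpart of mammalian NDUFB11, correlated with the bright members at r = 0.93, NdufV3 at 0.76, cype (COX6C) at 0.75, blw, the ATP synthase alpha subunit, at 0.56, levy (COX6A) at 0.55 and sun (ATP synthase epsilon) at 0.10. In NdufV3 the interaction was -0.15 ± 0.059 (limma, adjusted p = 0.666), and in the remaining 5 it lay between -0.084 and -0.033.

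Of the other mitochondrial gene lists, enzymes of the tricarboxylic acid cycle, which supply NADH and succinate, moved most closely with the subunits within a batch. Their median deviation (18 genes) correlated with that of the bright members at r = 0.81 over the 16 arrays of batch 1 and 0.86 over those of batch 2; over all 32 arrays r was 0.60 (Spearman's rho 0.57) and 0.51 without the 2 arrays farthest from the median. Carriers of the mitochondrial membranes (16 genes) gave 0.59 over all arrays, with 0.70 in batch 1 and 0.61 in batch 2. Electron carriers and quinone synthesis (10 genes) gave 0.44, with 0.62 and 0.30 in the batches, and assembly factors (11 genes) 0.33, with 0.63 and 0.034. Mitochondrial biogenesis and gene expression (15 genes) gave -0.089, with -0.0054 and -0.28. The muscle markers gave r = 0.59 (rho 0.60), with 0.64 in each batch and 0.53 without the 2 farthest arrays, and 14 of 15 muscle genes had an r above 0. TpnC4, a troponin C of flight muscle (0.71), fln, the thick-filament protein flightin (0.69), and Strn-Mlck (0.68) were highest among them, while sls, which encodes the titin-like Sallimus, stood at -0.028. Ovary and germline markers gave -0.39 over all arrays, -0.56 in batch 1, -0.23 in batch 2 and -0.23 without the 2 farthest arrays. Gut markers gave 0.35, with 0.46 and 0.16 in the batches, and fat body markers -0.19, with -0.26 and -0.055 (-0.34 without the 2 farthest arrays). For 3 lists the sign differed between the batches: nervous system (-0.40 and 0.21), testis (0.30 and -0.18) and accessory gland (0.070 and -0.22). A sign of RNA quality moved with the subunits too: the 3′ minus 5′ signal of the GAPDH control gave r = -0.62 in batch 1 and -0.44 in batch 2 (-0.19 over all arrays), that of actin -0.23 and -0.0021, and that of eIF-4a -0.078 and -0.19. The part of muscle RNA or of RNA quality in the common movement of the subunits was not tested.

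None of these mitochondrial lists had a gene that passed for the female regime, the male regime or their interaction (limma, adjusted p of 0.05). At an unadjusted p under 0.05 no list had more than 2 genes in any of these comparisons. Of all probe sets, 6.99%, 10.5% and 7.28% had such a p in these comparisons, so counts this small do not set the lists apart. Among the monogamous populations, 2 of 18 genes of the tricarboxylic acid cycle passed, led by Idh3b and Idh3g, subunits of isocitrate dehydrogenase, with ranges between the highest and lowest population mean of 0.95 and 0.47. The same test was passed by 3 of 11 genes of the assembly factor list, among them Bcs1 (0.28) and Surf1 (0.19), by 1 of 16 carriers (the phosphate carrier Mpcp2, 0.21), by 1 of 10 genes of quinone synthesis (Coq8, 0.39) and by 2 of 15 genes of biogenesis (mTTF, 0.26, and ewg, 0.30). Among all probe sets 10.7% passed this test. Among the promiscuous populations, where 7.67% of all probe sets passed, the counts were 5 of 18 for the tricarboxylic acid cycle, 2 of 15 for biogenesis and 0 for the other 3 lists. The assembly factor list also holds levy and sun, which are subunits.

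Differences between populations of a regime were tested against the spread between replicate arrays. Among the monogamous populations 3 of 71 members passed, all of them with a modest range, while 10.7% of all probe sets passed the same test. They were RFeSP (range of population means 0.43, limma, adjusted p = 0.0041), ND-13B (0.28, adjusted p = 0.0121) and UQCR-11 (0.55, adjusted p = 0.0301), of which RFeSP and UQCR-11 belong to complex III. In each of them the call was lost when the most extreme population was left out. Leaving out that population narrows the range by construction, so this cannot show that it alone carried the call.

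RFeSP, the Rieske protein that takes electrons from ubiquinol, was low in Mono2. The arrays of each population are given here in the order of monogamous mates in batches 1 and 2 and promiscuous mates in batches 1 and 2. RFeSP read 12.17, 12.19, 12.16 and 12.15 in Mono1, 11.96, 11.86, 12.00 and 11.95 in Mono2, 12.32, 12.20, 12.44 and 12.04 in Mono3, and 12.47, 12.26, 12.40 and 12.36 in Mono4. All 4 Mono2 arrays lay below every other monogamous array. Without Mono2 the range of the other population means was 0.20 and the call was lost (limma, adjusted p = 0.292). In the promiscuous populations the means were 12.11, 12.35, 12.21 and 12.37, a range of 0.26 that did not pass (limma, adjusted p = 0.0897).

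ND-13B, the counterpart of mammalian NDUFA5, was low in Mono1. It read 10.08, 10.29, 10.35 and 10.26 in Mono1, 10.42, 10.47, 10.56 and 10.54 in Mono2, 10.58, 10.50, 10.48 and 10.55 in Mono3, and 10.36, 10.33, 10.44 and 10.44 in Mono4. The highest Mono1 array overlapped with the lowest array of Mono4. Without Mono1 the range was 0.13 and the call was lost (limma, adjusted p = 0.316). The promiscuous population means were 10.38, 10.45, 10.37 and 10.44.

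UQCR-11, an accessory subunit of complex III whose probe set is dim, was high in Mono4. It read 5.62, 5.86, 6.03 and 5.80 in Mono1, 5.86, 5.39, 6.10 and 6.08 in Mono2, 5.57, 6.04, 5.96 and 5.94 in Mono3, and 6.38, 6.36, 6.42 and 6.34 in Mono4. The Mono4 arrays lay above all other monogamous arrays and closer to each other than those of the other 3 populations. Without Mono4 the range was 0.052 and the call was lost (limma, adjusted p = 0.971). The promiscuous means were 6.04, 5.66, 5.82 and 6.12.

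**Figure D4:**
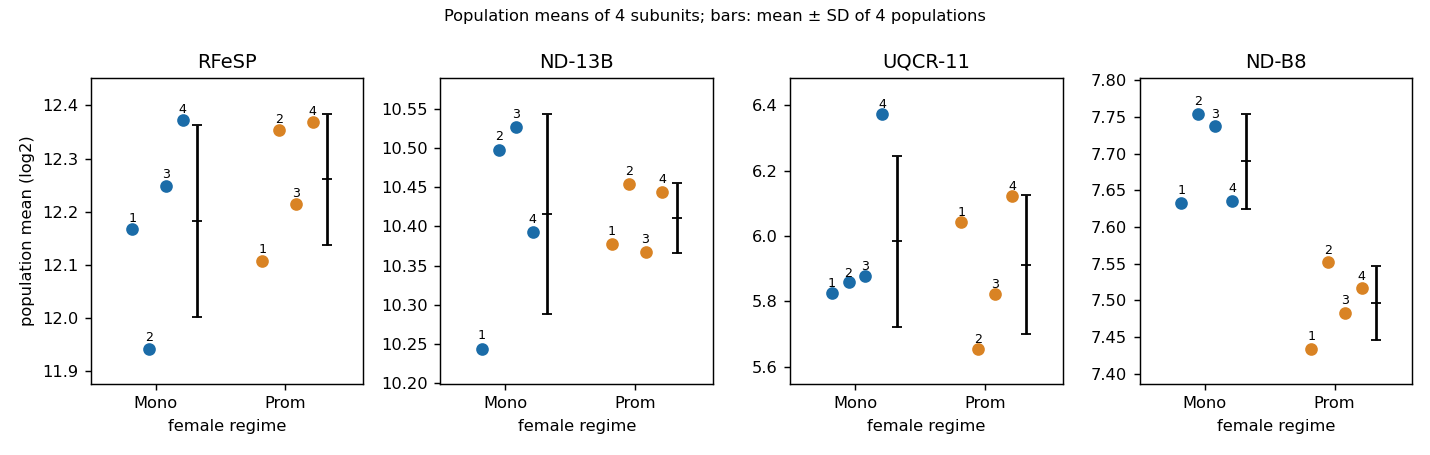
Means over 4 arrays for each population (points, numbered 1 to 4) of RFeSP, ND-13B, UQCR-11 and ND-B8 (RMA value, log2), by female regime, with mean ± SD of the 4 populations beside them. Mono2 is low for RFeSP at 11.94, Mono1 for ND-13B at 10.24, Mono4 is high for UQCR-11 at 6.37, and the regimes do not overlap for ND-B8.

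Among the promiscuous populations 0 of 71 members passed, while 7.67% of all probe sets did (limma). At an unadjusted p under 0.05 there were 4 members, RFeSP, ND-B14, UQCR-11 and ND-51L2, against 3593 probe sets in all. When only the 8668 probe sets with a mean of at least 6 were tested, RFeSP and ND-B14, or 2 of 53 members, passed (limma, adjusted p = 0.0479 and 0.0419), as did 16.7% of all probe sets so tested. In the test of all 18769 probe sets, the second, dim probe set of RFeSP, with a mean of 3.90, did pass (limma, adjusted p = 0.0438). The chosen one did not, so in that test the probe sets of this gene fell on either side of the threshold. Of the duplicates, none passed between populations of either regime; the lowest adjusted p among them was 0.0612, for COX6AL in the monogamous populations, with a range of 0.24 (limma).

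Between the batches, which hold every cross once, 4 of 71 members differed, while 19.8% of all probe sets did (limma). ND-51 was lower in batch 2 by -0.12 ± 0.034 (SE; adjusted p = 0.0173), ND-B16.6, the counterpart of mammalian NDUFA13, was higher by 0.096 ± 0.028 (adjusted p = 0.0193), and ND-MNLL was higher by 0.076 ± 0.025 (adjusted p = 0.0357). The calls were marginal: that of ND-51 was lost without Mono4, Prom2 or Prom3 (limma, adjusted p = 0.0532, 0.0616 and 0.0517), that of ND-B16.6 without Prom4 (0.074, limma, adjusted p = 0.0663), and that of ND-MNLL without any single population other than Mono3 (limma, adjusted p from 0.0515 to 0.115). With only probe sets of a mean of at least 6 tested, 9 of 53 members and 35.9% of all such probe sets passed, the members adding ATPsynC, COX7B, UQCR-14, ND-75 and SdhC, with differences between -0.066 and 0.094. The fourth was ATPsynbeta, the catalytic subunit of the ATP synthase, and its difference was of another size.

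The chosen probe set of ATPsynbeta read 13.04 at the lowest, 13.40 at the median and 13.50 at the highest over the 16 arrays of batch 1, and 12.16, 12.56 and 12.76 over the 16 arrays of batch 2. The batches did not overlap, and batch 2 was lower in 16 of 16 crosses, by -0.84 ± 0.048 (SE, limma, adjusted p = 7.36e-10). The gene's other probe set showed no such difference. It averaged 12.05 ± 0.055 (SD, n = 16) in batch 1 and 12.06 ± 0.12 in batch 2, a difference of 0.0034 ± 0.032 (SE, limma, adjusted p = 0.957). Over all 32 arrays the probe sets correlated at r = 0.071. Within batches the chosen probe set fell as the 3′ excess of the control transcripts grew: r with actin was -0.78 over the 16 arrays of batch 1 and -0.33 over those of batch 2, with GAPDH -0.64 and -0.55, and with eIF-4a -0.73 and -0.51. For the other probe set the values for actin, GAPDH and the initiation factor were 0.044, -0.26 and 0.20 in batch 1 and 0.62, 0.35 and 0.55 in batch 2. The part of RNA quality in the batch difference was not tested beyond these values.

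**Figure D5:**
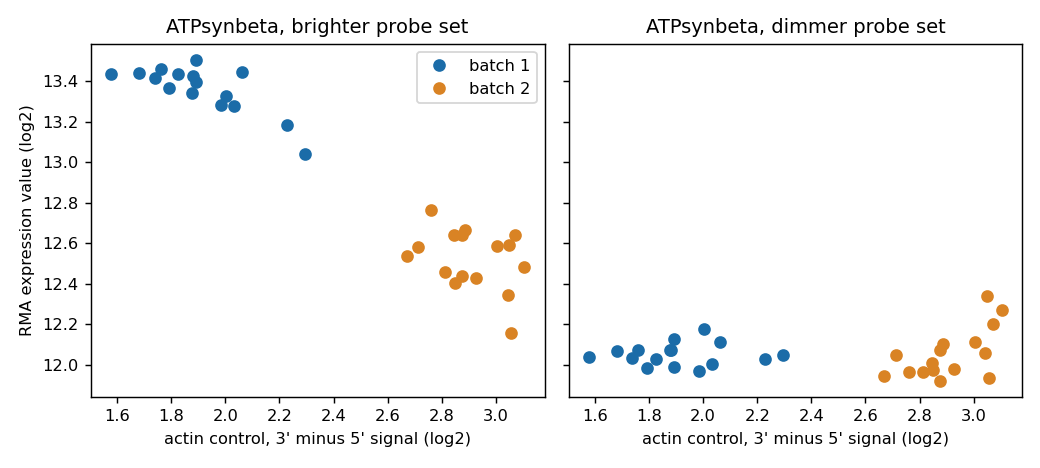
RMA value (log2) of the brighter and the dimmer probe set of ATPsynbeta against the 3′ minus 5′ signal of the actin control (log2), 1 point per array, coloured by batch. The brighter probe set separates the batches, with 13.04 to 13.50 in batch 1 and 12.16 to 12.76 in batch 2, and the dimmer one does not.

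The other genes with several probe sets differed in how far these moved together. Those of ND-B17 correlated at 0.86 over the 32 arrays, those of ND-ACP at 0.51 and 0.53, those of ATPsyngamma at 0.36, and the bright pair of COX7B at 0.42. The dim second probe sets of COX7B (mean 3.98) and COX7C (mean 3.62) gave 0.0043 and -0.23. For ATPsyngamma, whose chosen probe set had a female regime difference of -0.090 ± 0.040 (limma, adjusted p = 0.712), the other probe set gave -0.0083.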

How the data were processed

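RNA from whole females was extracted with Trizol and RNeasy, labelled with biotin by in vitro transcription and hybridised to 1 array per sample, per the labels' protocols. The submitters' processing notes name RMA and affy; versions and settings are not given in the sources used here. The deposited values are log2 expression values, and they were used as deposited. Of 18952 probe sets, 183 array controls were left out; of the 18769 tested, 13646 had 1 gene symbol in the platform annotation, 402 several and 4721 none, and only those with 1 symbol were named. All 71 members matched the RefSeq gene table by gene identifier. Another 4 probe sets met the naming rule but named several genes and were not used.

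From these values, limma 3.58.1 in R 4.3.3 (lmFit and eBayes, two-sided, Benjamini-Hochberg over all 18769 probe sets) compared female regimes over 8 population means, mates and their interaction over 16 cross means with female population as a block, and populations within a regime and batches with terms for cross (16) and batch in a fit of the 32 arrays. The fits were tested on simulated data. The labels call the 2 arrays of a cross biological replicates. Named members are those passing, or up to 3 in each direction of lowest p, a central subunit of each complex, and the duplicates, described together; SdhB stands for SdhA. Members and lists were chosen with earlier results of these data known. Alternatives were single batches, each population left out, a filter on low means, all probe sets of the members, cyclic loess, other error models and a replicate block. The number of arrays limits the precision, and no depth applies.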

Additional observations from a re-analysis of the deposited data

Results flagged for a closer look

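Of 52 groups of 4 to 8 values examined, 3 held a value far from the others, and chance gives about 1 group in 20. UQCR-11 was one, with a Mono4 mean of 6.37 against 5.83 to 5.88 in the other monogamous populations. The dim duplicate ATPsynGL was another, with a Prom4 mean of 4.12 against 3.99 to 4.00 in the other promiscuous populations. In the male difference of the bright members' median, Prom3 lay at -0.17 against -0.019 to -0.0014 in the other promiscuous populations. ND-B8 had a positive male difference in all 4 monogamous populations (mean 0.14) and a negative one in all 4 promiscuous populations (mean -0.12). In Mono1 to Mono4 it was 0.15, 0.19, 0.035 and 0.19. In Prom1 to Prom4 it was -0.0083, -0.091, -0.35 and -0.0070, so Prom1 and Prom4 lay near 0 and Prom3 weighed most. The share of all probe sets with such a sign pattern was not counted. The difference between the means, -0.26, did not pass the test of the interaction (limma, adjusted p = 0.664).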

How the results depend on the processing

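Most values were classed as the same under the rules given here, which are wide. For the counts of passing members and the medians, 119 values were classed as the same. A count was so classed when equal or of similar size. A median was so classed when it moved by less than its SD between replicates. That SD was 0.030 for the female regime, 0.058 for the male regime, 0.055 for the interaction and 0.082 for batch. The sign of a median was not part of this rule. In the main fits the medians were -0.0091 for the female regime, -0.021 for the male regime, -0.057 for the interaction and -0.0046 for batch. The SD was larger than the median or nearly its size, so this class cannot show that a median held. A count that stayed at 0 was also classed as the same. For single members, 268 values kept their direction and side of the threshold, while 15 lost a call. The count of members that differed between batches was 9 with a filter on means of at least 6, where fewer probe sets are tested, and ranged from 2, without Prom3, to 6, without Prom4, over the fits that left out 1 population. Of all probe sets, 19.8% differed between batches in the main fit and 35.9% with the filter. Among promiscuous populations, 1 probe set passed when all 80 of the members were used, and 2 members (RFeSP and ND-B14) passed with the filter. The median interaction was 0.0086 in batch 2 alone, in place of -0.057, and the male difference of UQCR-11 was -0.076 there, in place of 0.094. ND-13B also lost its call between monogamous populations over 16 cross means (limma, adjusted p = 0.0998). ND-51, ND-B16.6 and ND-MNLL each lost the batch call without at least 1 population, with adjusted p up to 0.115 in limma. Fitting the female regime on 32 arrays with population as a random block let 145 probe sets pass in place of 0, none of them a member. That fit draws its degrees of freedom from single arrays, with 1 correlation for all probe sets. The main fit has 6 residual degrees of freedom from population means, so the counts do not rest on the same replicates. Same-numbered populations of the regimes shared little beyond the number (r of their deviations 0.13, 0.071, 0.19 and 0.024). With population number as a replicate block, 0 members passed for the female regime and 5 had an unadjusted p under 0.05. The share of all probe sets at that p was not counted for this block. With 4 pairs of male populations as the replicate block, 0 members passed for the male regime. Neither block changed a call. The cause of these changes was not tested.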
